A study of Mus musculus with 4 samples.

Results

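The accessibility of 9 genes of transforming growth factor β (TGF-β) and activin signalling was followed in hepatocyte nuclei of the regenerating mouse liver. They were the ligand genes Tgfb1 and Inhba, the receptor genes Tgfbr1 and Tgfbr2, the signal transducer genes Smad2, Smad3 and Smad4, and the inhibitor genes Smad7 and Fst. The genes were chosen by name, as 9 of the 21951 protein-coding genes of the GENCODE vM21 annotation of mm10. Of all protein-coding genes, 15505 reached a mean of 5 CPM (counts per 1e+06 counts of the nuclei of a library) over the libraries, and all 9 members did.

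Single-nucleus ATAC-Seq (scATAC-Seq) counts the cuts that a transposase makes in open DNA, and was carried out on hepatocytes that had been isolated by a 2-step collagenase perfusion. The groups were undamaged liver (PHx 0 h) and regenerating liver collected 48, 72 or 96 h past a partial hepatectomy (PHx), surgery that takes away most of the organ. The mice were 10 to 12 weeks old and on a normal diet in every group, with no transgene named, and were male C57BL/6J by the study's methods. Each group was 1 library, so time and library cannot be told apart. At 0 and 48 h, 1 hepatocyte preparation gave the nuclei, and for 72 and 96 h the sources used here do not say whether animals were pooled.

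TGF-β and activin are secreted dimers that bring a type II receptor and a type I receptor together on the cell surface. The type I receptor then phosphorylates Smad2 and Smad3, which bind Smad4, enter the nucleus and regulate transcription together with other DNA-binding factors. In the liver these ligands are known as brakes on hepatocyte growth, and Smad7 and follistatin, the product of Fst, limit the signal at the receptor and at the ligand.

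Promoter sequences from RefSeq (GRCm38.p6, 250 bases before to 50 after the start) are shown for 3 of the genes, each 5′ to 3′ on the strand of the gene. Tgfbr1 is shown because its promoter peak had nearly the same called length in every library, Smad3 because its promoter had the lowest ratio of the members at 48 h, and Inhba because nearly all counts of the gene lay in its promoter peak. They lie at chr4:47352972-47353271 (+), chr9:63757945-63758244 (-) and chr13:16011601-16011900 (+), and each lay inside a region with a peak in all libraries. Capitals mark exact matches on either strand to the palindromic Smad box GTCTAGAC, the GC-rich Smad site GGCGCC, the AP-1 site TGANTCA or the TEAD site GGAATG.
Tgfbr1 promoter: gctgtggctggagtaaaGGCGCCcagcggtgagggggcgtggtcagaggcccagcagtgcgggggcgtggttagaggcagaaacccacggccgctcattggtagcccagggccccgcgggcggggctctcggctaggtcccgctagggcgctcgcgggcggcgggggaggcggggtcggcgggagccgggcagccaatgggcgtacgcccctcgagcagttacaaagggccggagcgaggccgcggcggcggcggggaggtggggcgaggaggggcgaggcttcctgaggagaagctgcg
Smad3 promoter: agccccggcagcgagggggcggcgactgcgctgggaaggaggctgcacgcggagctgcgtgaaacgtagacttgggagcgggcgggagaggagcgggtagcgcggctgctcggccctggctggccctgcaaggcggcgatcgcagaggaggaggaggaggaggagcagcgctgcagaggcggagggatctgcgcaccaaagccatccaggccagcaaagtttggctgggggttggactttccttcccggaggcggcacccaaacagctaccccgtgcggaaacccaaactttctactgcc
Inhba promoter: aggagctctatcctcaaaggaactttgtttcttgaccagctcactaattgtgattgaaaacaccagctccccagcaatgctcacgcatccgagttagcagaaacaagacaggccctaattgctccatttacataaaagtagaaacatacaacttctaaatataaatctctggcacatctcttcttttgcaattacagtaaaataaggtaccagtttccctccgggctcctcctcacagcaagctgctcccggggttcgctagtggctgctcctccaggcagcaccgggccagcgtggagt

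RefSeq promoters were matched for 5 of the 9 genes (Tgfb1, Tgfbr1, Tgfbr2, Smad3 and Inhba). The only match in their promoters at the annotated start was 1 GC-rich Smad site in that of Tgfbr1. Of all 32851 promoters in the table, 11.9% held this site, 0.213% the Smad box, 7.81% the AP-1 site and 14.7% the TEAD site, and no site overlapped another one here. The G and C content was 77.0% in the promoter of Tgfb1, 74.7% in that of Tgfbr1, 67.7% in that of Smad3, 59.0% in that of Tgfbr2 and 47.7% in that of Inhba, beside a median of 52.7% over all promoters. The matches describe letters in these windows and not binding.

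Elements in introns are part of the results on Tgfbr2 and Smad3, and 2 of them are shown as the central 300 bases of the stretch that the peaks of all libraries covered, on the strand of the gene. The element of Tgfbr2 (chr9:116111853-116112152, -) had the most counts of the intronic regions of the gene, and that of Smad3 (chr9:63699095-63699394, -) was higher after PHx than at 0 h in each library.
Tgfbr2 intron: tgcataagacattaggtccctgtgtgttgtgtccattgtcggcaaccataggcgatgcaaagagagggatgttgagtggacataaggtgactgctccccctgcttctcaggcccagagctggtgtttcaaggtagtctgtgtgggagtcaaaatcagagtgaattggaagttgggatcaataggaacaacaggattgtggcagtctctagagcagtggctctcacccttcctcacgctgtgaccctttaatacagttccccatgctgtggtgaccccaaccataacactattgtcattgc
Smad3 intron: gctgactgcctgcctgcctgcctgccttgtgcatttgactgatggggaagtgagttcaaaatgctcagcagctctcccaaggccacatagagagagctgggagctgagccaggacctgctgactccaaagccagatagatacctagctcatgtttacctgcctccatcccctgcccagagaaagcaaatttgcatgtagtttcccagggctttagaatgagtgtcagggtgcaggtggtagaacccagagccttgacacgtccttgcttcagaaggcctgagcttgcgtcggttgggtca

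Among 49691 regions with 1 peak in each library, 9.69% held an AP-1 match in the central 300 bases, 7.95% a GC-rich Smad site, 15.2% a TEAD site and 0.266% a Smad box. The 2 elements shown held none of these letters.

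Depth and cell content bear on every value that follows. Nuclei with at least 1000 counts numbered 3224 to 4256 per library, and their summed counts were 136582768, 62000846, 24724883 and 14935507 at 0, 48, 72 and 96 h. Peaks had been called in each library on its own, numbered 119839, 158652, 164113 and 77580, and covered 153.6, 179.0, 141.2 and 60.9 Mb. All 10 hepatocyte markers had counts in every library, with a summed level of 4156 to 6267 CPM. The summed levels of endothelial, of Kupffer and myeloid, of stellate and mesenchymal and of cholangiocyte markers ranged from 71.3 to 332.0 CPM, and lymphoid markers from 0 to 47.0 CPM. The macrophage genes Vsig4 and Cd5l were at 0 in all libraries. Hepatocyte-low nuclei, those of 2 clusters with low hepatocyte markers, made up 7.92%, 5.55%, 6.86% and 2.64% of nuclei. Between 27 and 60 barcodes were shared by any pair of libraries, and doublets were not called.

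Per kb of gene body plus 2000 bp upstream, the level at 0 h was highest for the inhibitor genes. It was 8.46 CPM per kb for Fst (exact 95% Poisson interval 8.23 to 8.70, which like all intervals here covers counting error only) and 5.30 CPM per kb for Smad7 (5.20 to 5.40). The ligand genes followed with 3.80 for Inhba and 2.21 for Tgfb1, then Smad3 with 1.78 and Smad2 with 1.16 CPM per kb. The lowest were Tgfbr2 with 0.971 (0.947 to 0.995), Smad4 with 0.93 (0.90 to 0.96) and Tgfbr1 with 0.89 (0.87 to 0.92) CPM per kb. In this order the intervals of Tgfbr2 and Smad4, and those of Smad4 and Tgfbr1, overlapped. The order depends on the length used. Per kb of covered peak it was led by Inhba with 10.7 CPM, then Fst with 9.28, Smad4 with 8.37 and Smad7 with 7.32, and of the 7902 bp of peak of Fst 5002 bp lay inside the window.

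**Figure D1:**
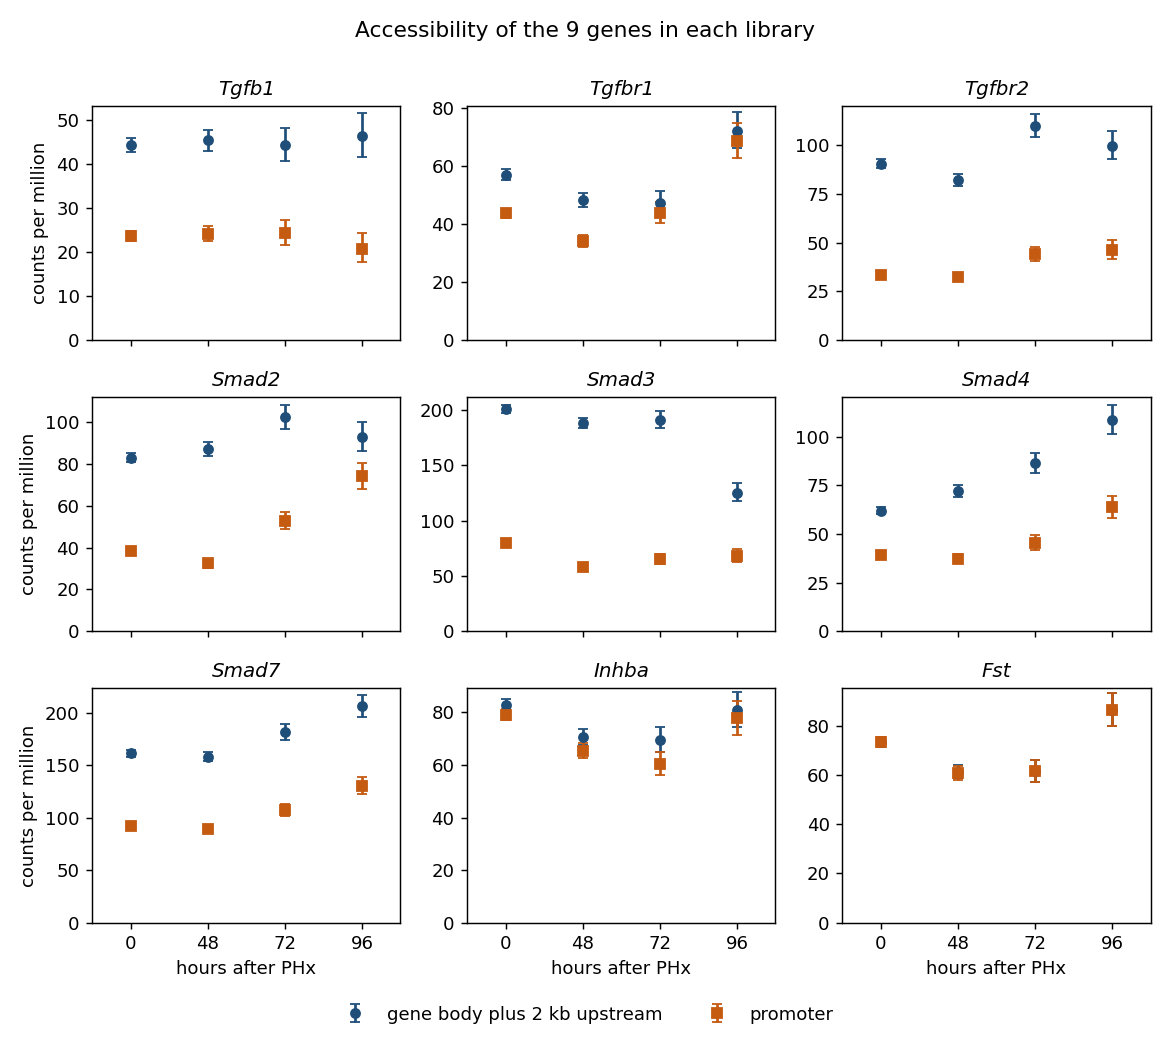
CPM over the gene body plus 2000 bp upstream (blue circles) and in promoter peaks (orange squares) for each gene, by hours after PHx, with exact 95% Poisson intervals that cover counting error only and 1 library per time. Smad4 is highest at 96 h with 109 CPM and Smad3 lowest at 96 h with 125 CPM, while Tgfb1 stays between 44.3 and 46.5 CPM.

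No member differed from 0 h by 1.5-fold at 48 or 72 h, and at 96 h Smad4 was higher and Smad3 lower by that measure. At 48 h, 0 of 9 members were at least 1.5-fold higher, where 13.3% of the 15505 genes were, and 0 of 9 were that much lower, where 6.91% were. At 72 h the members again counted 0 in each direction, beside 19.3% of genes higher and 15.8% lower. At 96 h, 1 of 9 was higher beside 17.8% of genes, and 1 of 9 lower beside 17.3%. The 96 h counts were thus near the share over all genes. The median log2 ratio of the members was -0.09, 0.01 and 0.16 at 48, 72 and 96 h, and that of all genes -0.03, -0.02 and 0.08. All ratios share the 0 h library, and were taken on CPM with a pseudocount of 1 CPM.

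Of the ligand genes, Tgfb1 lay between 44.3 and 46.5 CPM in every library, and Inhba was lower at 48 and 72 h in summed counts but not in binarised counts. Tgfb1 encodes TGF-β1, and Inhba the βA subunit whose dimer is activin A. Tgfb1 (ENSMUSG00000002603.15, chr7:25687002-25705077, +) had 44.3, 45.5, 44.4 and 46.5 CPM at 0, 48, 72 and 96 h. The intervals of these 4 values all overlapped, with log2 ratios to 0 h of 0.04 (-0.05 to 0.13), 0.01 (-0.13 to 0.14) and 0.07 (-0.09 to 0.23). The gene B9d2 overlaps Tgfb1 on the same strand, and their accessibility could not be separated. The 2 shared regions of Tgfb1, at its start and over its 3′ exon (chr7:25703441-25706300), both stayed within 0.13 of 0 h on the log2 scale.

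Inhba (ENSMUSG00000041324.14, chr13:16011851-16031621, +) had 82.8, 70.5, 69.7 and 80.9 CPM. The values of 48 and 72 h were the lower pair, and their intervals (67.6 to 73.6 and 65.1 to 74.5) did not reach that of 0 h (80.65 to 84.98). The log2 ratios were -0.23 (-0.30 to -0.16), -0.25 (-0.35 to -0.14) and -0.03 (-0.16 to 0.09). The promoter peak held 95.5%, 92.6%, 86.7% and 96.1% of these counts. A single intronic region had a peak in all libraries (chr13:16020439-16021223), with 3.10, 2.37, 3.40 and 3.15 CPM. The antisense gene Gm48444 and the pseudogene B230303A05Rik overlap Inhba. When whole merged regions were counted in place of the peaks that touch the window, an alternative chosen after seeing the data, the ratio at 96 h was 0.20. With counts binarised per peak and nucleus, the ratios were 0.03, 0.23 and 0.41, beside medians over all genes of -0.05, -0.08 and 0.

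The receptor genes differed from each other in the order of their libraries over the whole gene, while both promoters had their lowest level at 48 h and their highest at 96 h. Tgfbr1 encodes the type I receptor ALK5, and Tgfbr2 the type II receptor that binds TGF-β first. Tgfbr1 (ENSMUSG00000007613.15, chr4:47353222-47414931, +) had 56.96, 48.2, 47.3 and 72.0 CPM, so 48 and 72 h lay below 0 h and 96 h above it. Its log2 ratios were -0.24 (-0.33 to -0.15), -0.26 (-0.40 to -0.14) and 0.33 (0.20 to 0.47). The promoter gave another value at 72 h, since it held 43.6, 34.03, 43.7 and 68.5 CPM, with a log2 ratio of 0.00 there. Shared regions alone gave 0.01 for the gene at 72 h, and per kb of peak the ratio was 0.82, beside a median of 0.17 over all genes on that scale. With that at the start included, 11, 13, 5 and 2 merged regions of the gene had a peak at 0, 48, 72 and 96 h.

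Tgfbr2 (ENSMUSG00000032440.13, chr9:116084293-116175360, -) had 90.3, 82.1, 109.9 and 99.8 CPM, lowest at 48 h and highest at 72 h. The log2 ratios were -0.14 (-0.20 to -0.07), 0.28 (0.20 to 0.37) and 0.14 (0.03 to 0.25). The promoter had 33.6, 32.5, 44.0 and 46.1 CPM. The value of 48 h lay inside the interval of 0 h, and those of 72 and 96 h lay above it.

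Within Tgfbr2, different intronic regions lay on opposite sides of 0 h. The element at chr9:116091130-116092529, 82831 bp into the gene, had 7.65, 4.39, 6.92 and 6.49 CPM. Its log2 ratio of -0.68 at 48 h stood at percentile 2.86 of 61362 shared regions with a mean of at least 2 CPM. The element shown above, inside chr9:116110965-116112831, had 19.1, 12.97, 14.1 and 21.4 CPM, with a log2 ratio of -0.52 at 48 h (percentile 6.95) and 0.16 at 96 h. Their called length was 1333 and 1164 bp at 0 and 48 h for the former and 1861 and 1689 bp for the latter, and per kb of peak the log2 ratios at 48 h were -0.61 and -0.42. By contrast, the region chr9:116151817-116153216, 22144 bp into the gene, had 0.64, 2.61 and 6.19 CPM at 0, 48 and 72 h. Its peak grew from 340 to 897 and 1400 bp, and no peak was called there at 96 h, so the level then is not known. This region was singled out after its values were seen.

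**Figure D2:**
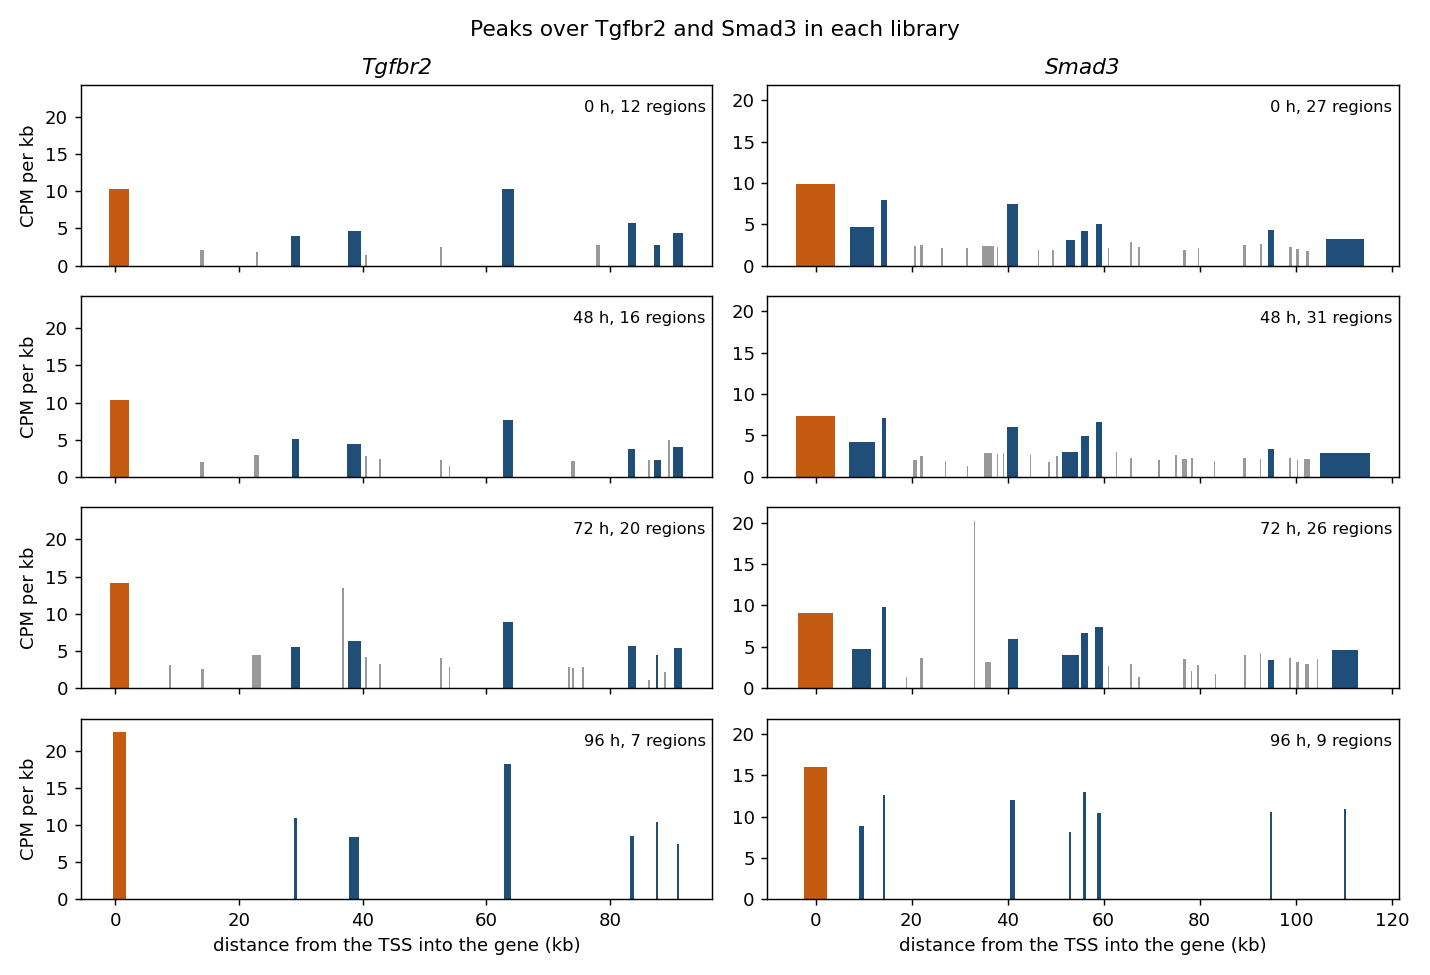
Merged regions over Tgfbr2 and Smad3 with a peak in each library, placed by the distance of the midpoint from the transcription start site (TSS) in kb. Bar height is CPM per kb of peak, and width the called length (drawn at no less than 0.25 kb). Orange marks the region at the TSS, blue regions with a peak in all libraries and grey the others; 27 regions of Smad3 have a peak at 0 h and 9 at 96 h.

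Among the Smad genes, only Smad4 and Smad3 passed 1.5-fold over the whole gene, in opposite directions and at 96 h alone. Smad4 encodes the common partner of the receptor-activated Smads. Smad4 (ENSMUSG00000024515.13, chr18:73639009-73703780, -) had 62.0, 71.9, 86.3 and 108.5 CPM, so each later library lay above the one before, and no intervals overlapped. The log2 ratios were 0.21 (0.14 to 0.29), 0.47 (0.38 to 0.57) and 0.80 (0.70 to 0.92), at percentiles 70.0, 76.6 and 90.7 of all genes. Covered length was 7406, 10316, 8856 and 5003 bp, and per kb of peak the levels were 8.37, 6.97, 9.75 and 21.7 CPM, with a log2 ratio of -0.26 at 48 h beside a median of -0.21 over all genes on that scale. The promoter did not share the step at 48 h, with 39.1, 37.4, 45.5 and 63.6 CPM.

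Of the intronic regions of Smad4 with a peak in all libraries, 3 had their highest level at 96 h. The element at chr18:73696171-73698043, 5737 bp into the gene, had 11.2, 15.3, 15.7 and 17.0 CPM, with a log2 ratio of 0.41 at 48 h. That at chr18:73665351-73666953 had 6.87, 7.85, 10.1 and 14.1 CPM, and that at chr18:73674096-73674782 had 3.71, 3.87, 5.86 and 7.36 CPM. These last elements had nearly the same called length in all libraries, from 1317 to 1581 bp and from 569 to 682 bp. The other intronic region with a peak in all libraries, chr18:73655475-73656076, had 1.07, 1.68, 3.03 and 0.13 CPM over 401, 591, 598 and 49 bp of peak, with 2 counts at 96 h. Per kb of peak its levels were 2.67, 2.84, 5.07 and 2.73 CPM. Of the 18 regions of the gene, 12 had no peak at 0 h and 13 none at 96 h.

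Smad3, one of the receptor-activated Smads, had the most regions of the 9 genes, 41 of 140. Smad3 (ENSMUSG00000032402.12, chr9:63646767-63757994, -) had 201.0, 188.4, 191.3 and 125.5 CPM, with the 96 h value far below the other libraries. Its log2 ratios were -0.09 (-0.14 to -0.05), -0.07 (-0.13 to -0.01) and -0.68 (-0.78 to -0.58), the last at percentile 14.8. The promoter had 80.3, 58.3, 65.4 and 68.3 CPM, and its log2 ratio of -0.46 at 48 h was the lowest of the 9 promoters, at percentile 17.7.

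Beside the lower value of Smad3 at 96 h stood a shorter called length, which was 39680, 45078, 34146 and 9407 bp, and the part of that length in the value was not tested. Of its 41 regions, 32 had no peak at 96 h, beside 105 of the 140 regions of all members. At the 3′ end (chr9:63642553-63653029), which also overlaps the gene Aagab, the level was 25.7, 30.1, 24.9 and 3.88 CPM over 7951, 10477, 5476 and 356 bp of peak. Per kb of peak, Smad3 had 5.07, 4.18, 5.60 and 13.3 CPM, a log2 ratio of 1.40 at 96 h, near the median of 1.26 that this scale gave over all genes. Counted in shared regions alone, the log2 ratio was -0.52.

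A group of intronic elements in Smad3 went the other way at 48 and 72 h. The element shown above, inside chr9:63698129-63699841, had 5.68, 8.76, 12.5 and 9.04 CPM, and log2 ratios of 0.55, 1.01 and 0.59. Its neighbour at chr9:63701061-63702769 had 6.08, 8.37, 9.83 and 8.03 CPM. The third, at chr9:63703231-63706712, had 5.59, 9.66, 13.8 and 3.28 CPM with a log2 ratio of 0.69 at 48 h (percentile 91.9) and 1.16 at 72 h (percentile 94.9). Its peak grew from 1825 to 3190 and 3482 bp, and per kb of peak the log2 ratio at 48 h was -0.02. For the element shown above the peak grew less, from 1142 to 1318 and 1693 bp, and per kb the log2 ratios were 0.42 and 0.56. An intronic region nearer the start, at chr9:63715747-63718104, had 17.4, 14.0, 12.5 and 13.5 CPM, below 0 h in each later library.

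Smad2, the partner of Smad3 in signalling, differed more at its promoter than over the gene. Smad2 (ENSMUSG00000024563.16, chr18:76241580-76310963, +) had 82.7, 87.05, 102.1 and 92.6 CPM, with log2 ratios of 0.07 (0.01 to 0.14), 0.30 (0.21 to 0.39) and 0.16 (0.05 to 0.28). The promoter had 38.3, 32.4, 52.6 and 74.1 CPM and log2 ratios of -0.23 (-0.35 to -0.14), 0.45 (0.33 to 0.58) and 0.93 (0.82 to 1.09), so it was lower at 48 h and higher at 72 and 96 h. Over the gene the sign turned at 96 h in binarised counts (-0.14, beside a median of 0 over all genes). At 48 h the ratio of the gene was 0.00 in binarised counts and -0.11 in shared regions alone. Per kb of peak it was -0.18 at 48 h, beside a median of -0.21 over all genes. The promoter held 46.2% of the counts of the gene at 0 h and 80.0% at 96 h. Of its 20 regions, 15 had no peak at 96 h.

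The inhibitor genes had no 1.5-fold difference in summed counts in any library, and in binarised counts both were past it at 96 h (0.69 for Smad7 and 0.65 for Fst). The binarised median over all 15505 genes was -0.05, -0.08 and 0 at 48, 72 and 96 h, and the share of them past 1.5-fold was not computed. Median counts per nucleus were 26005 at 0 h and 3681.5 at 96 h, and the part of depth in binarised ratios was not tested. Smad7 encodes the inhibitory Smad that binds the type I receptor, and Fst encodes follistatin, which binds activin. Smad7 (ENSMUSG00000025880.11, chr18:75367529-75395935, +) had 161.3, 158.1, 181.7 and 206.3 CPM, with log2 ratios of -0.03 (-0.08 to 0.02), 0.17 (0.11 to 0.24) and 0.35 (0.28 to 0.43). In binarised counts the ratios at 48 and 72 h were 0.10 and 0.44. Its intervals at 0 and 48 h overlapped, and 72 and 96 h lay above both. Peaks at its start, inside chr18:75366105-75376084, had 92.2, 89.4, 107.3 and 130.3 CPM. The non-coding gene Gm20544 overlaps Smad7 on the other strand.

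Fst (ENSMUSG00000021765.9, chr13:114452290-114458951, -) had 73.3, 61.5, 61.6 and 86.6 CPM, lower at 48 and 72 h and higher at 96 h than at 0 h, and none of these later intervals overlapped that of 0 h. The log2 ratios were -0.25 (-0.33 to -0.18), -0.25 (-0.36 to -0.14) and 0.24 (0.12 to 0.36), and the promoter peak held 99.1% to 100% of the counts. The lower values rest on where the peaks were split, since some peaks at 48 and 72 h lay just beyond the window. With 5000 bp upstream, the ratios were -0.02, -0.00 and 0.46, and with binarised counts those of 48 and 72 h were 0.09 and 0.16. Over the whole merged region at the start (chr13:114455121-114463851) the levels were 73.3, 71.8, 73.2 and 100.9 CPM. The antisense gene Gm47040 overlaps Fst.

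Over the window of 2000 bp Fst had the largest absolute log2 ratio of the members at 48 h, a rank it loses with 5000 bp upstream (-0.02, beside -0.24 for Tgfbr1). The genes nearest to its window ratios over the 3 ratios were Zscan12 (Euclidean distance 0.008), Slc41a1 (0.017) and L3mbtl2 (0.018). Zscan12 had 16.4, 13.7, 13.7 and 19.5 CPM.

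Called peak length moved with the counts across all genes. Across the 15505 genes, which share the same libraries, Pearson's r between the log2 ratios of counts and of covered length was 0.83, 0.88 and 0.68 at 48, 72 and 96 h, given as a description. The median log2 length ratio of these genes was 0.15, -0.14 and -1.10. Among the members at 96 h, covered length ratios ranged from -2.11 in Smad2 to -0.57 in Smad4, the gene with the highest count ratio. Per kb of peak all 9 members were higher at 96 h, with log2 ratios from 0.92 to 2.27 and a median of 1.37. The median of all 15330 genes with a peak at every time was 1.26, so that these ratios were not particular to the members.

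**Figure D3:**
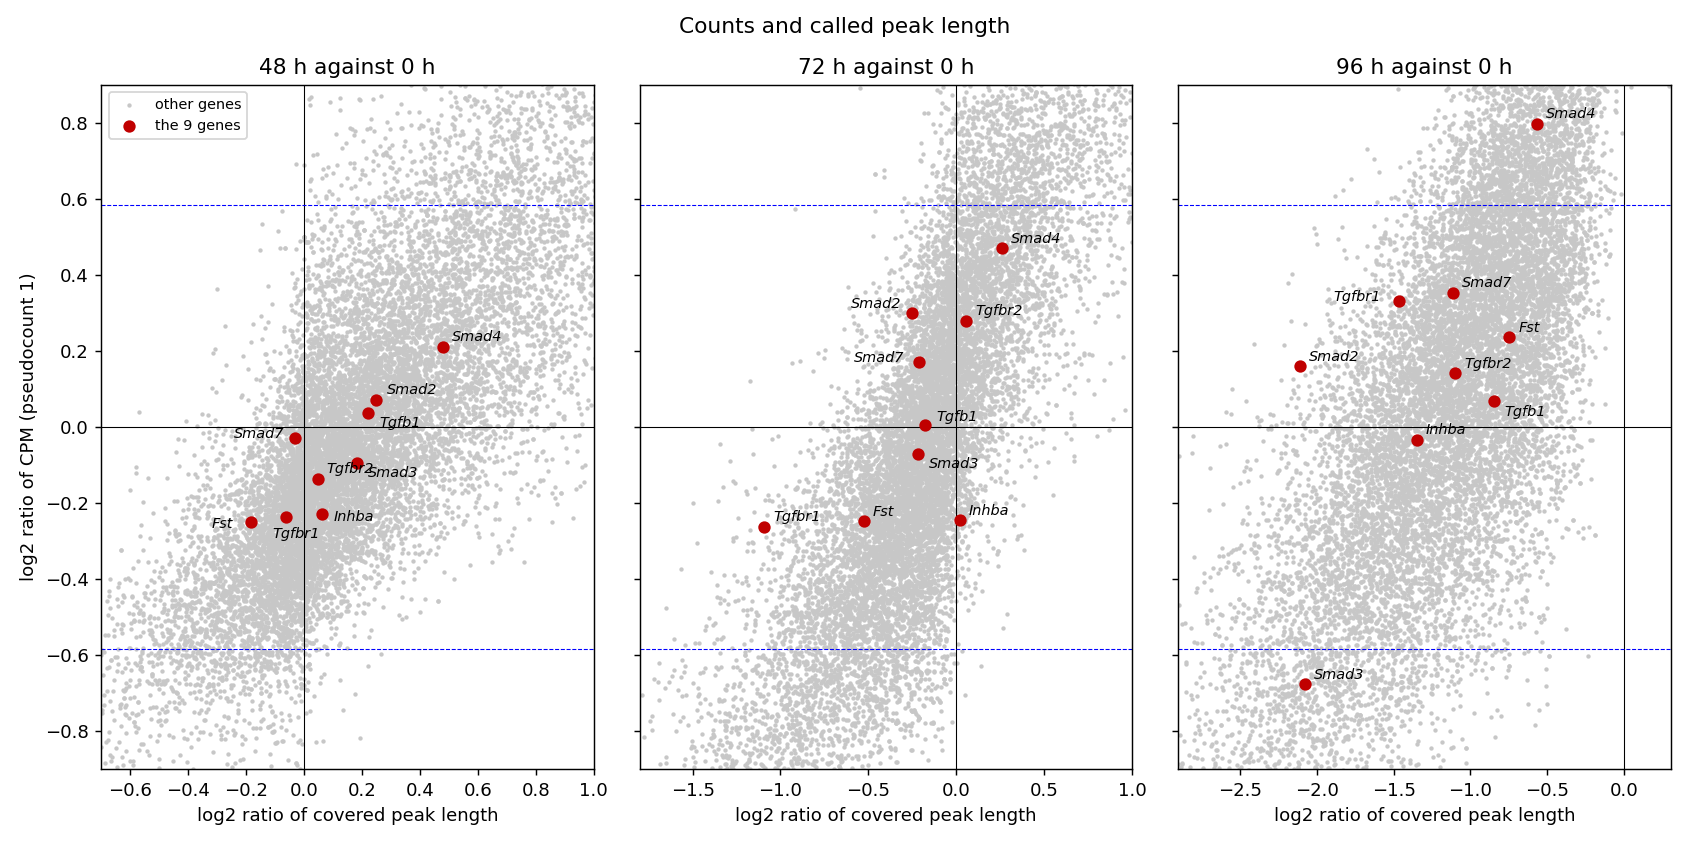
Log2 ratio of CPM to 0 h (pseudocount of 1 CPM) against the log2 ratio of covered peak length for each gene (grey) and the 9 genes (red), at 48, 72 and 96 h; axes are cropped to the range of the 9 genes. Dashed blue lines mark 1.5-fold. At 96 h Smad4 lies above the upper line at 0.80 and Smad3 below the lower at -0.68 with a length ratio of -2.08.

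At promoters, peaks within 1000 bp of the TSS, Tgfbr1, Smad2 and Smad4 were past 1.5-fold at 96 h and no member was at 48 or 72 h. Their log2 ratios were 0.64 for Tgfbr1 (0.51 to 0.79), 0.93 for Smad2 and 0.69 for Smad4 (0.56 to 0.84), so 3 of 9 were higher beside 21.4% of 12879 measured promoters. None of 9 was 1.5-fold lower, beside 15.5%. At 48 h the count was 0 of 9 in each direction beside 9.67% higher and 9.24% lower, and at 72 h 0 of 9 beside 13.2% and 18.7%. The median log2 ratio of the 9 promoters was -0.23, 0.04 and 0.44, and that of all promoters -0.19, -0.12 and 0.18.

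The 96 h values of Tgfbr1 and Smad2 were near the middle of those at promoters of like peak length. The promoters of Tgfbr1 and Smad2 were the 2 of the 9 (without Smad4, at 3011 and 1696 bp) whose covered length at 0 and 96 h was near-equal, the longer being at most 25% longer than the shorter. Among 1621 promoters of that kind, a set chosen after seeing the data, the median log2 ratio at 96 h was 0.75, and 64.5% were at least 1.5-fold higher. Tgfbr1 stood at percentile 40.7 and Smad2 at percentile 64.9 of them. The same held for merged regions with 1 peak of near-equal length in each library, 4 of the 35 shared regions of the members. Their log2 ratios at 96 h were 0.64 at the Tgfbr1 start, 0.93 at the Smad2 start, and 0.94 and 0.83 in the intronic Smad4 regions. The median over 1758 such regions was 0.82. At 48 h, where that median was 0.03, the starts of Tgfbr1 (-0.35, percentile 9.39) and Smad2 (-0.23, percentile 19.3) were in the lower part. The intronic Smad4 regions then had 0.17 (percentile 65.8) and 0.05 (percentile 51.8).

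**Figure D4:**
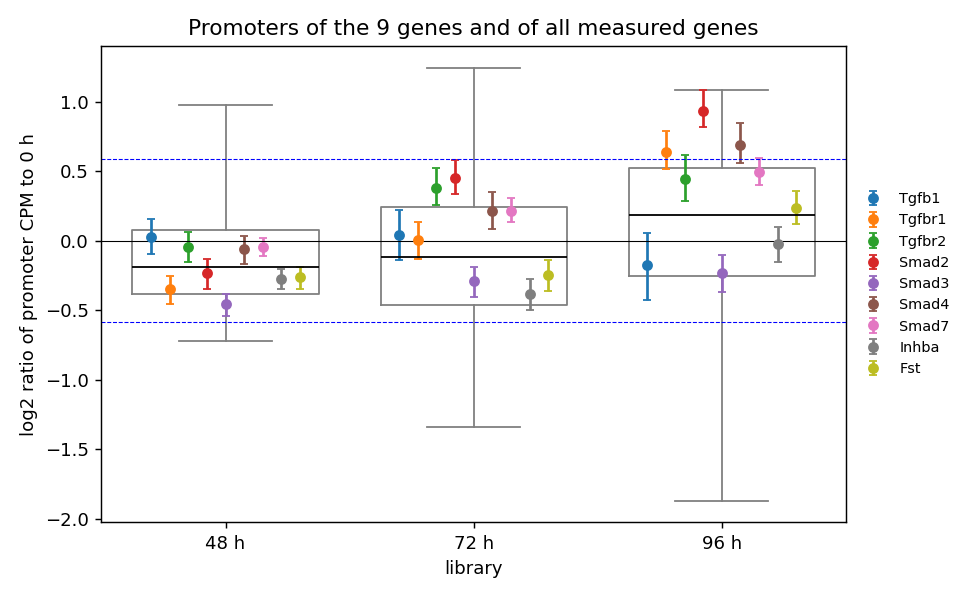
Log2 ratio of promoter CPM to 0 h for each of the 9 genes (coloured points with 95% intervals for counting error) over boxes for 12879 promoters (median, quartiles, whiskers from the 5th to the 95th percentile). Dashed blue lines mark 1.5-fold. At 96 h the points of Tgfbr1, Smad2 and Smad4 lie above the upper line, at 0.64, 0.93 and 0.69.

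In total 140 merged regions lay over the 9 genes, of which 35 had a peak in every library. Peaks were present in 84, 112, 95 and 35 of them at 0, 48, 72 and 96 h. No region without a peak at 0 h had one at all of the later times. The share of all merged regions with such patterns was not computed, so these counts, like those per gene above, describe the members alone. Of the 34 shared regions with a mean of at least 2 CPM, 1 was 1.5-fold higher and 1 lower at 48 h. These were the intronic regions of Smad3 and Tgfbr2 named above, at 0.69 and -0.68. At 72 h 3 were higher and 0 lower, and at 96 h 6 were higher and 5 lower. Over all shared regions, 11.2% were higher and 4.93% lower at 48 h, 20.9% and 11.3% at 72 h, and 24.5% and 14.1% at 96 h.

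Within a library, hepatocyte-low nuclei could be set beside hepatocyte-like nuclei on the same peaks, so called length was equal in this comparison. Tgfb1 had the highest ratio of the members at 0, 48 and 72 h, with 141.3 CPM in hepatocyte-low and 42.4 CPM in hepatocyte-like nuclei at 0 h, 143.5 and 44.2 CPM at 48 h, and 117.8 and 42.6 CPM at 72 h. The log2 ratios were 1.71 (1.52 to 1.95), 1.68 (1.29 to 2.08) and 1.45 (0.93 to 1.96), and 0.73 (-0.89 to 1.98) at 96 h, where 10 counts were found. It was the only member at least 2-fold higher at 0, 48 and 72 h, so 1 of 9 beside 8.40%, 14.0% and 11.8% of genes. Both clusters carried the difference at 0 h, with 118.1 CPM in cluster 3 and 160.0 CPM in cluster 4. The median of this log2 ratio over all genes was 0.27, 0.28, 0.19 and 0.22 at 0, 48, 72 and 96 h, and the other members are to be read beside it. Smad7 had ratios of 0.51 (0.35 to 0.68), 0.87 (0.59 to 1.14), 0.25 (-0.13 to 0.61) and -0.41 (-1.48 to 0.47). At 48 h its ratio was 1.26 in cluster 3 and 0.55 in cluster 4. Tgfbr2 had 0.72 (0.51 to 0.93) at 0 h, then 0.33 (-0.16 to 0.78), 0.28 (-0.21 to 0.74) and 0.40 (-0.77 to 1.36). Its clusters differed, with 0.41, -0.48, -0.16 and -1.13 in cluster 3 and 0.92, 0.68, 0.86 and 1.70 in cluster 4 at 0, 48, 72 and 96 h. After 0 h the intervals of cluster 3 all reached above 0, and those of cluster 4 all lay above it. At 96 h these values rest on 4 and 13 counts. Fst and Inhba had ratios below 0, with intervals that in part reached above it. For Fst the ratios were -0.86 (-1.29 to -0.48), -0.27 (-0.99 to 0.35), -0.73 (-1.76 to 0.10) and -1.46 (-4.54 to 0.37). For Inhba they were -0.43 (-0.77 to -0.12), -0.58 (-1.34 to 0.06), -0.98 (-2.03 to -0.13) and -1.36 (-4.44 to 0.47), with 4 counts of each gene in hepatocyte-low nuclei at 96 h.

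The classes were rebuilt here and the hepatocyte-low clusters were left unnamed. Endothelial markers reached 2-fold over the hepatocyte-like level for 6 of 10 genes in cluster 3, and Kupffer and myeloid markers for 3 of 5 measured genes in cluster 4. Their nuclei had 0.223 and 0.375 of the median counts of their own library, and the hepatocyte marker level of cluster 3 (-1.03) lay near the limit of -1 that divided the classes. Different clusters held most hepatocyte-like nuclei of each library: cluster 1 at 0 h, cluster 0 at 48 and 72 h and cluster 2 at 96 h. Without hepatocyte-low nuclei every member ratio to 0 h stayed within its counting interval.

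**Figure D5:**
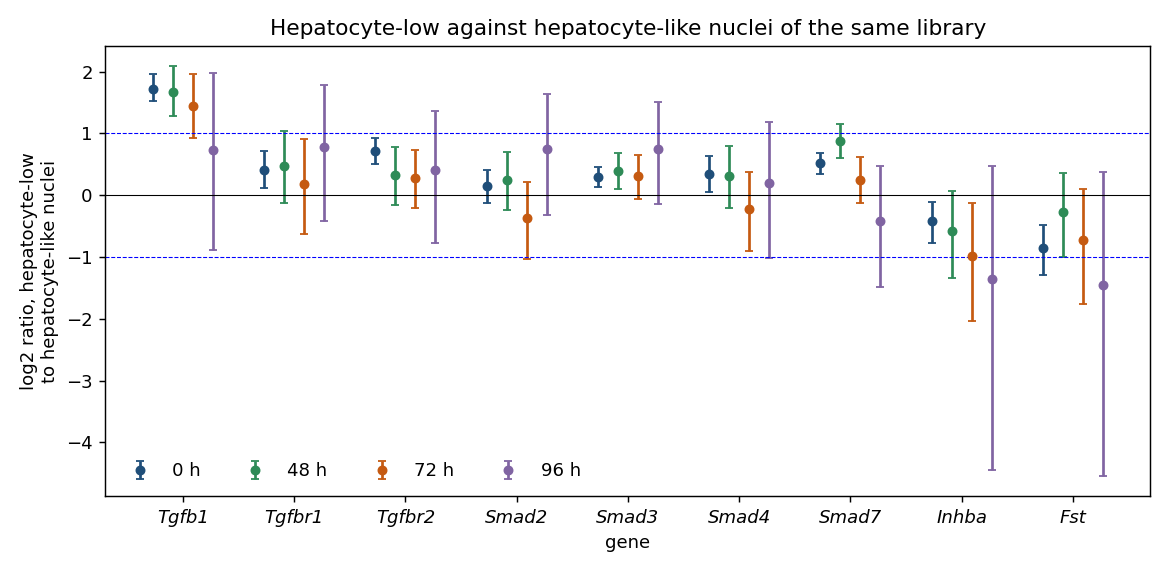
Log2 ratio of CPM in hepatocyte-low to hepatocyte-like nuclei of the same library for each gene, coloured by hours after PHx, with 95% intervals for counting error. Dashed blue lines mark 2-fold. Tgfb1 lies above the upper line at 0, 48 and 72 h, at 1.71, 1.68 and 1.45, and the intervals of 96 h are the widest because that library had 85 hepatocyte-low nuclei.

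The wider pathway was read from a list of 60 further genes, of which 57 were measured. Of the 57, 9 were at least 1.5-fold higher and 3 lower at 48 h, 20 and 4 at 72 h, and 17 and 5 at 96 h, with medians of 0.13, 0.20 and 0.11 on the log2 scale. The shares of all genes were 13.3% higher and 6.91% lower at 48 h, 19.3% and 15.8% at 72 h, and 17.8% and 17.3% at 96 h. Ligand and latency genes counted 5 of 16 higher and 0 lower at 48 h, 10 of 16 and 1 at 72 h, and 6 of 16 and 2 at 96 h, with medians of 0.36, 0.90 and 0.16, to be read beside the same shares and with the filter in mind. Summed stellate and mesenchymal markers (71.3, 107.1, 155.2 and 121.3 CPM) and endothelial markers (238.5, 258.2, 332.0 and 200.2 CPM) were also highest at 72 h, and their part in these counts was not tested. Receptor genes counted 2 of 11 higher and 0 lower at 48 h, 3 and 1 at 72 h, and 3 and 2 at 96 h, with medians of 0.05, 0.35 and 0.12. Inhibitors and co-factors counted 2 of 12 and 1, 4 and 1, and 4 and 1, with medians of 0.03, 0.17 and 0.44. Target genes counted 0 of 14 higher and 2 lower at 48 h, 3 and 1 at 72 h, and 4 and 0 at 96 h, with medians of 0.14, 0.14 and 0.10. Itgb8, which encodes an integrin subunit that activates latent TGF-β, had 0.40, 7.29, 10.8 and 5.56 CPM over 202, 2204, 2358 and 591 bp of peak. It passed the filter of 5 CPM only through the later libraries, so its ratio of 2.56 at 48 h, the highest of the list, follows in part from the filter. Pmepa1, which encodes a negative regulator of the pathway, had 22.0, 65.7, 112.7 and 47.5 CPM over 3951, 17139, 23821 and 2749 bp of peak. The lowest ratios at 48 h were those of the co-repressor gene Tgif1, with 294.2, 161.0, 131.9 and 186.7 CPM, and of Id2, which encodes an inhibitor of helix-loop-helix factors, with 263.5, 158.9, 123.5 and 207.6 CPM. Called length fell with them, from 23452 to 13463 bp in Tgif1 and from 13409 to 10693 bp in Id2 at 48 h. The 4 other Smad genes, Smad1, Smad5, Smad6 and Smad9, had no 1.5-fold difference over the whole gene in any library. At promoters, Smad9 had log2 ratios of -1.02 at 72 h and -0.86 at 96 h, and Smad1 0.80 at 96 h.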

How the data were processed

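The authors deposited counts of transposase cut sites per peak and barcode, made with Cell Ranger ATAC (1.1.0, per the file headers) on mm10 (per the labels). The deposited peak coordinates, called per library, carry no score, and the deposited barcode lists name the columns. Nuclei were barcodes with at least 1000 counts. CPM divides the counts in peaks touching a gene or the 2000 bp upstream by all counts in peaks of the nuclei. Log2 ratios used a pseudocount of 1 CPM over genes with a mean of at least 5 CPM, and called means 1.5-fold. With 1 library per group no test was run. Exact 95% intervals were computed on counts divided by 2, as 87.3% to 88.6% of values were even. Peaks that touched between libraries were merged into regions. Nuclei were clustered by TF-IDF, truncated singular value decomposition (30 components, the first left out), 30 neighbours and the Leiden method (leidenalg 0.10.2) at resolution 0.5. Scripts (Python 3.11.15, scipy 1.17.1) were tested on simulated data. The members, lists and limits were chosen with earlier results of these data known. Named were all members, the 2 highest and 2 lowest other pathway genes at 48 h, the 3 genes nearest to the member with the largest absolute ratio at 48 h, and per member the shared region with the largest absolute ratio at 48 h among those with a mean of at least 2 CPM. Regions named besides these were chosen after their values were seen. Of the 60 pathway genes, Inha and Col1a2 were under the filter and Ctgf was not found under that symbol. Some items are not reported here. Alternatives changed the nuclei, window, pseudocount, fold, scaling and peaks counted.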

Additional observations from a re-analysis of the deposited data

How the results depend on the processing

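No paired analysis was possible because each group was 1 library. The counts of members past 1.5-fold at 48, 72 and 96 h stayed within 1.5 times under every deposited barcode, a minimum of 3000 counts, no top 5% of nuclei, hepatocyte-like nuclei only, 5000 bp upstream, a pseudocount of 5 CPM, scaling to a median of 0, and whole merged regions, the last chosen after seeing the data. Per kb of covered peak, 1 member (Tgfbr1) was higher at 72 h and 9 at 96 h, and 0 were lower at 96 h. The medians of all genes on that scale were 0.17 at 72 h and 1.26 at 96 h. Binarised counts gave 3 members higher at 96 h (Smad4, Smad7 and Fst), where the median of all genes was 0. Shared regions alone gave 2 higher and 0 lower at 96 h. Regions of near-equal length, with values for Tgfbr1, Smad2 and Smad4 only, gave 3 higher and 0 lower at 96 h. Of all 1758 such regions, 69.9% were at least 1.5-fold higher and 0.0569% lower at 96 h. A fold of 2 gave 0 in each direction at 96 h. For the per kb, binarised and shared-region counts and for a fold of 2, the share of all genes called was not computed. The Smad3 ratio at 96 h reversed per kb, to 1.40, on a scale where the median of all genes was 1.26. Causes were not tested, other than that fewer genes or a higher fold enter by construction. The hepatocyte-low values at 96 h rest on 85 nuclei and 4 to 27 counts per member.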
